A study of Mus musculus with 15 samples.

Results

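Major histocompatibility complex (MHC) class II presentation is carried out by a small group of genes, 10 of which were followed here by symbol in the livers of 15 mice. They are the chains of the class II molecules themselves (H2-Aa, H2-Ab1 and H2-Eb1), the invariant chain Cd74, the peptide editors H2-DMa, H2-DMb1 and H2-DMb2, their modulators H2-Oa and H2-Ob, and the transactivator Ciita. The genes were chosen by name and function, with no measured value in the rule, but with earlier results of these data known. The array carries 45101 probe sets (groups of short probes read out as 1 value), and 19 of them name 1 of 9 of these genes alone. H2-DMb1 has none of its own, because 2 further probe sets match it and H2-DMb2 together, and these are given below under both names. Of the 19, 14 were bright enough to be tested and stand for 7 genes. The other 5, which include the only probe sets that name H2-Oa or H2-Ob alone, were below the array median on at least 1 mouse of every diet.

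Male C57BL/6J mice of 8 weeks received 1 of 3 diets for 12 weeks, 5 mice a diet. The NC mice ate CRF-1 standard chow. The CL mice ate a high-cholesterol and high-fat diet, made of CRF-1 mixed with 0.5% sodium cholate, 60% cocoa butter and cholesterol at 1.25%, which is used as a model of nonalcoholic steatohepatitis (NASH), an inflamed fatty liver. The CL+CX mice ate the CL diet with β-cryptoxanthin, a xanthophyll carotenoid of citrus fruit, at 0.003% in the treatment text and 0.005% in the sample titles. NC and CL differed in all components of the CL diet at once, and no group received β-cryptoxanthin on chow. Whole-liver RNA of each mouse was hybridised to 1 array, so the values mix hepatocytes with every other cell of the organ.

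Class II molecules display peptides from ingested proteins to CD4+ T cells. The α and β chains assemble with the invariant chain, which blocks the groove until proteases of the endosome cut it away, and H2-DM then exchanges its last fragment for other peptides. Dendritic cells, B cells and macrophages, including the resident Kupffer cells of the liver, are the main carriers, and hepatocytes carry little. Ciita is the transactivator that the class II promoters depend on, and interferon γ induces it in cells that otherwise lack it.

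The promoters of these genes share an upstream module in which the X box, bound by the RFX complex, lies ahead of the Y box, bound by NF-Y, and Ciita docks on the assembled factors. RefSeq promoters of 300 bases (250 before and 50 after the start; assembly GRCm38.p6) were at hand for 7 of the 10 genes, in 8 promoters; H2-Ab1, Cd74 and Ciita were not in the table. The Y box letters TGATTGG were found in 6 of these 8, on the gene's own strand, and in 7.82% of all 32851 promoters on either strand. The letters GCAAC, which open many X boxes, lay 25 to 40 bases upstream of them on the same strand in 4 of the 8 (H2-Aa, H2-Eb1, H2-Oa and H2-Ob), against 47 promoters (0.143%) of the whole table with both strands searched. GCAAC alone is frequent and was in 35.2% of promoters. The letters and spacing were set after these promoters had been read, so the shares are descriptions. The windows below run 5′ to 3′ on each gene's strand, with TGATTGG and, where it has that spacing, GCAAC in capitals.

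H2-Aa promoter, chr17:34287847-34287925 (minus strand): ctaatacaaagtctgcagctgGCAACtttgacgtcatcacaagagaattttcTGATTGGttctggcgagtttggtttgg
H2-Eb1 promoter, chr17:34305754-34305832 (plus strand): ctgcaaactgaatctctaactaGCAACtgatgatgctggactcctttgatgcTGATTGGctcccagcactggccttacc
H2-Oa promoter, chr17:34092282-34092360 (plus strand): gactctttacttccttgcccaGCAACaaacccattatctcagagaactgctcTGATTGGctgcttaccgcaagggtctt
H2-Ob promoter, chr17:34238794-34238872 (plus strand): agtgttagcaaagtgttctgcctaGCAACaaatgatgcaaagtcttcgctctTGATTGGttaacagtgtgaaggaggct
H2-DMb1 promoter, chr17:34153076-34153154 (plus strand): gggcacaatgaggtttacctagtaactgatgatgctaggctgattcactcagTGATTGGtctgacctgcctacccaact
H2-DMb2 promoter, chr17:34145105-34145183 (plus strand): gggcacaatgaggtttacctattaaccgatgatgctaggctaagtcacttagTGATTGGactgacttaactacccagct

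The distance from the first base of GCAAC to the first base of TGATTGG was 31 bases in H2-Aa and H2-Oa, 30 in H2-Eb1 and 28 in H2-Ob. H2-DMb1 and H2-DMb2 held TGATTGG without that pair, and neither promoter of H2-DMa held TGATTGG. The related gene H2-Eb2 was among the 47 too.

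Signals below are the deposited array signals after each array was brought to a common 75th percentile. They have no absolute unit, and levels are compared between mice for 1 probe set and never between probe sets. A difference is given on the log2 scale with its standard error (SE) and an adjusted p from limma with the Benjamini-Hochberg method over all 20342 tested probe sets, and a call means an adjusted p under 0.05. The array medians lay between 11.3 and 13.5 after scaling, and no pair of arrays was identical. The array of CL mouse 2 correlated least with its own group (mean r = 0.941, against 0.957 to 0.962 for the other CL arrays). The log2 difference between 3′ and 5′ probe sets of β-actin, a sign of RNA integrity, was 1.07 ± 0.101 in CL+CX, 0.82 ± 0.0968 in CL and 0.94 ± 0.0859 in NC (SD, n = 5 each), and every CL+CX array was above every CL array.

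The CL diet was accompanied by a strong rise of the class II genes. In CL against NC, 13 of the 14 tested probe sets rose, over all 7 genes, and none fell, where 5.9% of all tested probe sets rose. Their differences ran from 0.38 to 3.28 with a median of 2.80, and the median of all tested probe sets was -0.09. In the same 13 every CL mouse was above every NC mouse, which held for 4.92% of all tested probe sets. Of these 13, H2-Aa 1443783_x_at, H2-DMb2 1443686_at and 1443687_x_at and Ciita 1421210_at passed the brightness filter only through mice on the CL diets. For these probe sets a rise over NC is partly built into the filter, and the calls for H2-DMb2 and Ciita rest on them alone. In CL+CX against CL, 5 of the 14 fell, over H2-Aa, H2-Ab1 and H2-Eb1, and none rose, where 1.55% of all probe sets fell and 1.58% rose. In CL+CX against NC, 10 of the 14 were still higher, over 5 genes, where 4.81% of all probe sets were higher. Each pair of these comparisons shares a group of mice. In whole liver, a change in the number of cells that carry a transcript and a change in transcript per cell cannot be told apart.

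**Figure D1:**
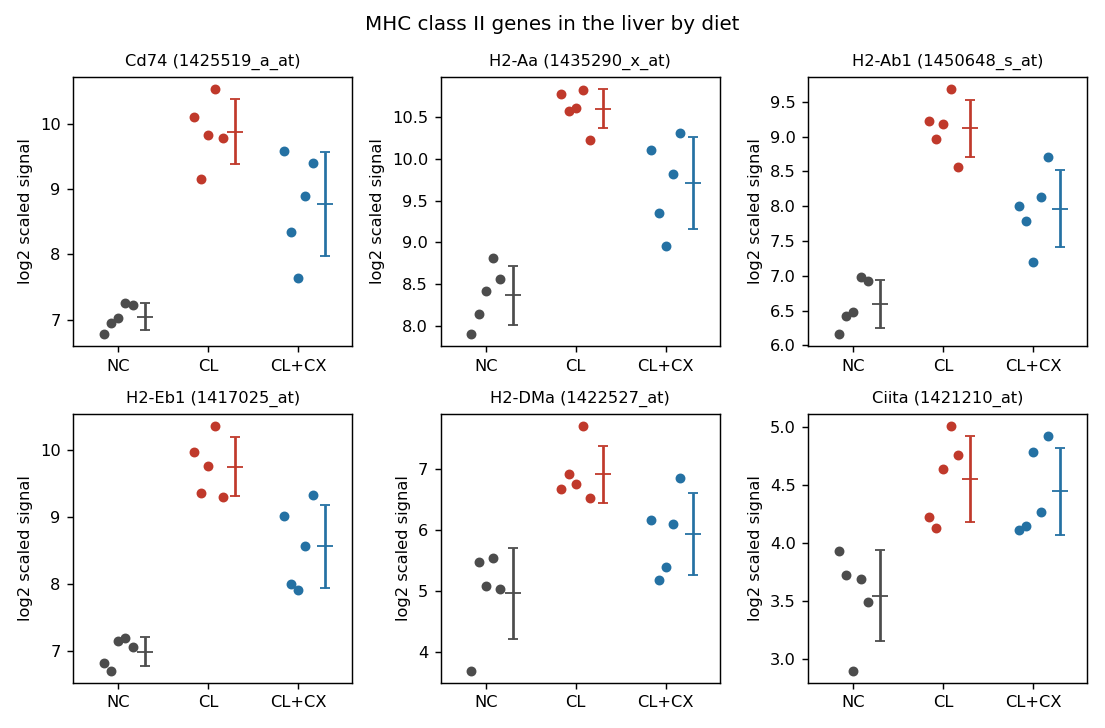
Log2 scaled signal of 6 class II genes (1 probe set each) in every mouse by diet. Points are mice in the order of their replicate numbers, and bars show the mean and SD of 5. The CL mice sit above all NC mice in each panel. The CL+CX mice sit above all NC mice in each panel but that of H2-DMa, and their values overlap those of the CL mice in every panel.

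H2-Aa encodes the α chain of the I-A molecule. Its probe set 1435290_x_at read 240.3, 282, 342, 449 and 379 in the 5 NC mice, 1757, 1516, 1557, 1804 and 1199.8 in the CL mice and 1099, 653, 498, 906 and 1268 in the CL+CX mice. The CL mice stood well clear of the NC mice, and the highest CL+CX mouse overlapped the lowest CL mouse. The rise in CL was 2.23 (4.69-fold, SE 0.237, adjusted p = 6.26e-05), and the CL+CX mean differed from the CL mean by -0.89 (SE 0.237) with an adjusted p of 0.0519, just over the threshold. A second probe set of the gene, 1452431_s_at, read 34, 65.7, 76.9, 76.1 and 55.7 in NC, 716, 360.0, 550.0, 862 and 519.9 in CL and 384, 179, 80.9, 209 and 353 in CL+CX. It gave the widest of the members' CL differences, 3.28 (9.73-fold, SE 0.372, adjusted p = 8.48e-05), and fell by 1.45 in CL+CX against CL (SE 0.372, adjusted p = 0.0468). The remaining 2 probe sets, 1438858_x_at and 1443783_x_at, rose in CL by 2.84 and 2.97. Their CL+CX differences from CL were -0.88 and -0.94, with adjusted p of 0.087 and 0.148. The 4 probe sets of H2-Aa thus agreed in direction, but only 1 of them passed the test in CL+CX against CL. All 4 were still higher in CL+CX than in NC, by 1.34 to 2.02.

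H2-Ab1 encodes the β chain that pairs with H2-Aa. Probe set 1450648_s_at read 71.9, 85.7, 89.3, 126 and 121 in NC, 597, 499.7, 578, 821 and 378 in CL and 257, 219.8, 146, 279.9 and 419 in CL+CX. The lowest CL mouse was below the highest CL+CX mouse, and all CL mice were above all NC mice. It rose in CL by 2.53 (5.76-fold, SE 0.259, adjusted p = 5e-05) and was lower in CL+CX than in CL by 2.23-fold (-1.16, SE 0.259, adjusted p = 0.0293). Probe set 1451721_a_at read 51.4, 59.8, 67.5, 110.4 and 59.3 in NC, 721, 499.9, 518, 763 and 349.6 in CL and 270.3, 105, 85, 172 and 312 in CL+CX. This was the only one of the 14 in which every CL+CX mouse was below every CL mouse, a pattern found in 2.02% of all tested probe sets. Its decrease was 3.29-fold (-1.72, SE 0.34, adjusted p = 0.0206), and the NC and CL+CX mice overlapped. The third probe set, 1425477_x_at, ran from 21.7 to 50.9 in NC, 203 to 498 in CL and 34.3 to 239.6 in CL+CX. It rose by 3.10 in CL (adjusted p = 0.000241) and was lower in CL+CX than in CL by 3.13-fold (-1.65, SE 0.405, adjusted p = 0.0408). All 3 probe sets of H2-Ab1 passed the test in all 3 comparisons, with differences of 1.32 to 1.45 left between CL+CX and NC. The calls in CL+CX against NC were lost without a filter for 1451721_a_at (adjusted p = 0.0942) and 1425477_x_at (0.122), and for the latter under the methods' test (0.0709). They were also lost without NC mouse 1, 2 or 5 or CL+CX mouse 1 or 5 for both (0.0535 to 0.0897), and for 1425477_x_at without NC mouse 3 or CL+CX mouse 2 or 4 (0.0531 to 0.0643).

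H2-Eb1 encodes the β chain of the I-E molecule, whose α chain gene H2-Ea is defective in C57BL/6 mice. Its single probe set 1417025_at read 113, 105, 142, 148 and 134 in NC, 1003, 658, 873, 1317 and 635 in CL and 521, 256, 242, 382 and 644 in CL+CX. The groups stood in the order NC, CL+CX, CL, with a small overlap between the upper 2, since the highest CL+CX mouse was just above the lowest CL mouse. The rise in CL was 6.78-fold (2.76, SE 0.265, adjusted p = 4.6e-05) and the decrease in CL+CX 2.27-fold (-1.19, SE 0.265, adjusted p = 0.0293). H2-Ea had 3 probe sets, none of which reached the brightness for a test, and H2-Ea probe set 1422891_at read 3.04 to 7.54 in NC, 3.58 to 9.58 in CL and 3.0 to 9.07 in CL+CX. All its values lay under the medians of their arrays.

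Cd74 encodes the invariant chain. The NC mice read 110.2, 123, 129.9, 153 and 150.0, the CL mice 1102, 571, 916, 1488 and 888 and the CL+CX mice 769.7, 325, 199, 478 and 678 (1425519_a_at). No NC mouse reached the lowest mouse of either CL diet. Cd74 rose in CL by 7.16-fold (2.84, SE 0.319, adjusted p = 8.33e-05). Its CL+CX mean was 2.16-fold below the CL mean (-1.11, SE 0.319, 95% interval -1.79 to -0.43), which did not pass (adjusted p = 0.0699), and 3.31-fold above the NC mean (adjusted p = 0.00441). The CL+CX mice covered a wide range here, with mouse 3 nearest to the NC mice and mouse 1 within the CL range.

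H2-DMa encodes the α chain of H2-DM, the peptide exchanger. Probe set 1422527_at read 12.9, 44.4, 33.8, 46.6 and 32.6 in NC, 102, 121, 108, 209 and 91.9 in CL and 71.3, 36.1, 41.8, 68.4 and 115 in CL+CX. The CL mice were again all above the NC mice, while the CL+CX mice overlapped both groups. The rise was 3.87-fold (1.95, SE 0.363, adjusted p = 0.003), and CL+CX differed from CL by -0.98 (95% interval -1.75 to -0.21, adjusted p = 0.145) and from NC by 0.97 (adjusted p = 0.1), neither of which passed. The other H2-DMa probe set, 1459872_x_at, was too dim for a test and did not follow this order, with 16.5, 15.4, 12.9, 14.6 and 11.8 in NC, 5.63, 2.09, 2.68, 20.8 and 1.8 in CL and 9.4, 8.85, 14.1, 5.86 and 15.9 in CL+CX.

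The β chain of H2-DM is encoded by the neighbouring genes H2-DMb1 and H2-DMb2. The probe set shared by both, 1418638_at, read 9.28, 8.22, 10.2, 22.2 and 11.7 in NC, 53.7, 48.3, 64.4, 106 and 59.9 in CL and 51.2, 27.4, 15.3, 38.7 and 55.8 in CL+CX. It rose in CL by 5.54-fold (2.47, SE 0.344, adjusted p = 0.000352) with no overlap, and its CL+CX difference from CL of -0.91 did not pass (adjusted p = 0.156). The second shared probe set, 1449580_s_at, rose in CL by 3.28 (SE 0.653, adjusted p = 0.00476). Both shared probe sets passed the brightness filter only through mice on the CL diets, so a rise over NC is partly built in. Which of both genes these signals belong to cannot be told apart, and neither probe set is counted among the 14.

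The 3 probe sets of H2-DMb2 alone disagreed. Probe set 1443686_at read 5.31, 16.6, 17.9, 6.62 and 11.3 in NC, 29.4, 25.2, 19, 33.8 and 21.9 in CL and 21.4, 15.5, 13.3, 10.4 and 14.6 in CL+CX, and rose in CL by 1.29 (SE 0.308, adjusted p = 0.0131). Probe set 1443687_x_at read 9.94, 1.4, 2.05, 6.16 and 5.82 in NC, 35.1, 41.3, 28.7, 23.6 and 36.3 in CL and 31.6, 22.6, 1.46, 13.5 and 23.6 in CL+CX. Its NC values were below the array medians on all 5 arrays, so the CL mean was at least 2.64-fold higher, counted against the medians of the NC arrays (adjusted p = 0.0116). By contrast, 1419744_at read 13.2, 5.99, 16.2, 8.03 and 13.4 in NC, 11.2, 8.64, 18.4, 14 and 20.6 in CL and 13.7, 18.9, 26.5, 26.5 and 21 in CL+CX. It was the one tested probe set that did not pass in CL against NC (0.38, SE 0.293, adjusted p = 0.436) and the one with a CL+CX mean above the CL mean (0.58, 95% interval -0.04 to 1.20, adjusted p = 0.292). Because 1419744_at passed the brightness filter only through the CL+CX mice, its higher CL+CX mean is partly built into the filter.

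H2-Oa and H2-Ob form H2-DO, which restrains H2-DM in B cells and some dendritic cells. H2-Oa (1419297_at) read 5.01, 1.27, 8.44, 3.2 and 4.03 in NC, 7.88, 3.22, 8.62, 15.9 and 10.9 in CL and 2.46, 9.0, 1.64, 11.2 and 5.86 in CL+CX. H2-Ob (1440837_at) read 1.6, 1.65, 4.54, 9.41 and 1.52 in NC, 7.95, 2.91, 6.7, 10.9 and 8.39 in CL and 9.48, 5.69, 6.03, 4.5 and 10.5 in CL+CX. All values but that of H2-Oa in CL mouse 4 were below the medians of their arrays. A further probe set, 1422201_at, matches H2-Ob and Gm20506 together. It read 4.75 to 15.5 in NC, 8.85 to 16 in CL and 6.18 to 14.7 in CL+CX, was not tested and cannot be assigned to either gene. The diets overlapped in all 3 probe sets, and at signals this low no difference between diets could be read.

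Ciita, the transactivator, rose in CL. Its tested probe set 1421210_at read 15.2, 13.2, 7.48, 12.9 and 11.2 in NC, 18.7, 17.5, 24.9, 32.1 and 27.1 in CL and 17.3, 17.7, 27.5, 19.3 and 30.2 in CL+CX. Every mouse on either CL diet was above every NC mouse, and CL and CL+CX covered nearly the same range. The rise in CL was 2.01-fold (1.00, SE 0.225, adjusted p = 0.0093), and CL+CX was 0.90 above NC (SE 0.225, adjusted p = 0.0214). The call against NC in CL+CX was lost without a filter (adjusted p = 0.0876), under the methods' test (0.0585), with the β-actin covariate (0.0728) and without NC mouse 3, CL+CX mouse 3 or CL+CX mouse 5 (0.0505 to 0.0559). CL+CX differed from CL by -0.11 (95% interval -0.58 to 0.37, adjusted p = 0.844). The other 2 probe sets were too dim for a test. Of these, 1421211_a_at read 1.75, 0.67, 0.94, 3.75 and 7.62 in NC, 11.6, 9.95, 11.6, 29.3 and 16.5 in CL and 8.7, 3.48, 5.45, 12 and 15.5 in CL+CX, and 1447075_at read 0.32, 4.42, 7.79, 0.51 and 4.03 in NC, 1.65, 0.61, 4.09, 14.4 and 4.78 in CL and 14.2, 8.7, 14.4, 13.7 and 9.73 in CL+CX. The former had all CL mice above all NC mice and the latter all CL+CX mice above all NC mice.

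**Figure D2:**
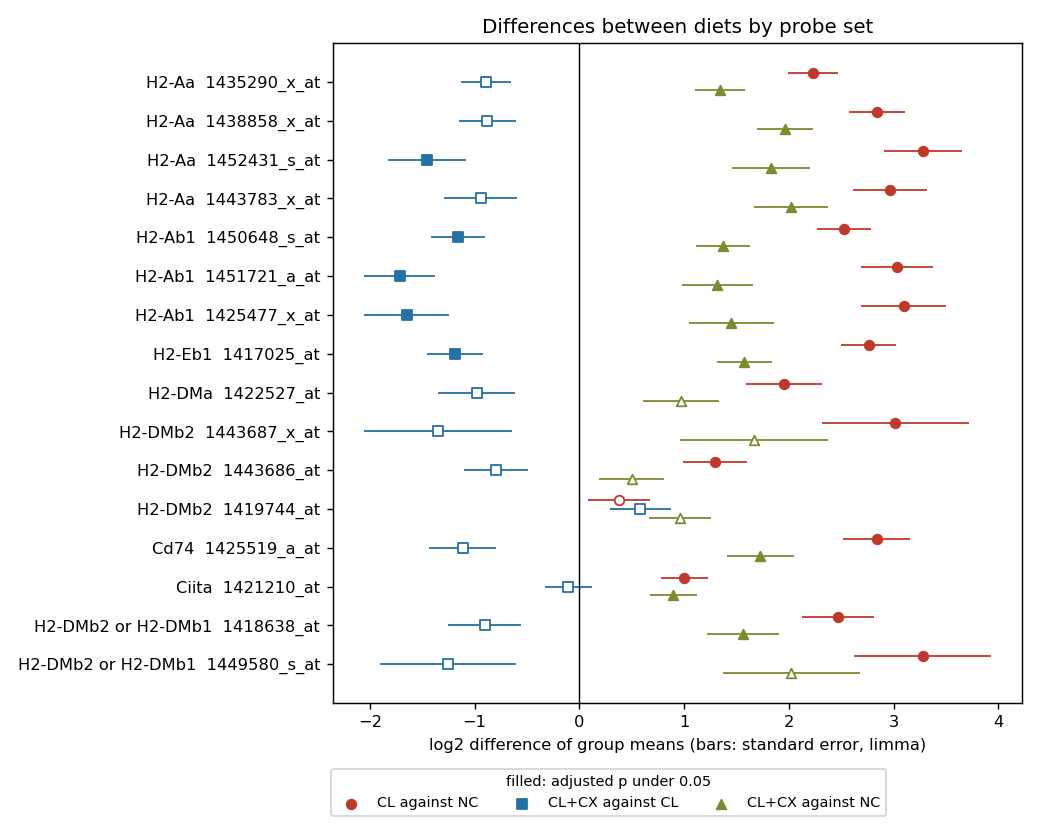
Log2 difference of group means with its limma standard error for each tested class II probe set and the 2 probe sets shared by H2-DMb1 and H2-DMb2, in the 3 comparisons. Filled symbols have an adjusted p under 0.05, which holds for 13 of 14 in CL against NC, 5 of 14 in CL+CX against CL and 10 of 14 in CL+CX against NC.

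In CL+CX against CL the calls fell on the α and β chains. Of the 14 probe sets, 13 had a CL+CX mean below the CL mean, with a median difference of -1.05 where that of all tested probe sets was 0.04, and 11 had an unadjusted p under 0.05. H2-DMb2 1443686_at, which is among the 11, and H2-DMb2 1443687_x_at passed the brightness filter only through the CL mice. For these probe sets a lower CL+CX mean is partly built into the filter. Only the 5 named above passed the adjusted test (limma, Benjamini-Hochberg), while Cd74, H2-DMa, H2-DMb2 and Ciita did not. These 5 calls depended on single mice and on the fit. Without CL+CX mouse 2, or without CL+CX mouse 3, none of the 14 passed (11 and 10 at an unadjusted p under 0.05). Calls over all tested probe sets, in either direction, were then 0.61% and 0.512%, against 3.13% in the main fit. Without CL mouse 1, 3 or 4 or CL+CX mouse 4, 1 passed (0.799% to 1.57% of all). Without NC mouse 2, 3 or 5, 3 passed (2.18% to 2.42% of all). None passed when the β-actin difference entered the fit (0 at an unadjusted p under 0.05), where 1 of all 20342 probe sets was called. The 5 differences then shrank to between -0.92 and -0.70 (adjusted p of 0.911 to 0.930). Every CL+CX array was above every CL array on that measure, so covariate and diet cannot be told apart in this comparison.

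The CL+CX mice were spread more widely than the CL mice, a difference given here without a test. The log2 SD was larger in CL+CX than in CL for 13 of the 14 probe sets (median 0.641 against 0.423), while this held for 31.3% of all tested probe sets. Averaged over the probe sets of H2-Aa, H2-Ab1, H2-Eb1 and Cd74 that are plotted by mouse, the log2 level above the NC mean was 2.59 ± 0.365 in CL (2.22 to 3.10) and 1.5 ± 0.611 in CL+CX (SD, n = 5 each). CL+CX mouse 5 stood at 2.19 and mouse 1 at 1.93, both just below the lowest CL mouse. Mice 4, 2 and 3 stood at 1.61, 1.12 and 0.68.

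The same mice were high or low in most genes of the group. CL+CX mouse 5 was the highest of its diet in 9 of the 14 probe sets and CL+CX mouse 3 the lowest in 9. In the CL group mouse 4 was the highest in 12, and in the NC group mouse 1 was the lowest in 9. The deviations of each mouse from its diet mean followed the mean deviation of H2-Aa, H2-Ab1, H2-Eb1 and Cd74 with r of 0.87 to 0.93 for the 4 probe sets that make up that mean, each set against the other 3. The other probe sets of H2-Aa and H2-Ab1, with r of 0.75 to 0.96, were set against a mean that holds another probe set of the same gene, so part of their likeness is built in. For H2-DMa r was 0.74. For the 3 probe sets of H2-DMb2 r was 0.48, 0.22 and -0.17, and for Ciita 0.05. These correlations are over 15 mice and share arrays and scaling, and describe the mice without a test.

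**Figure D3:**
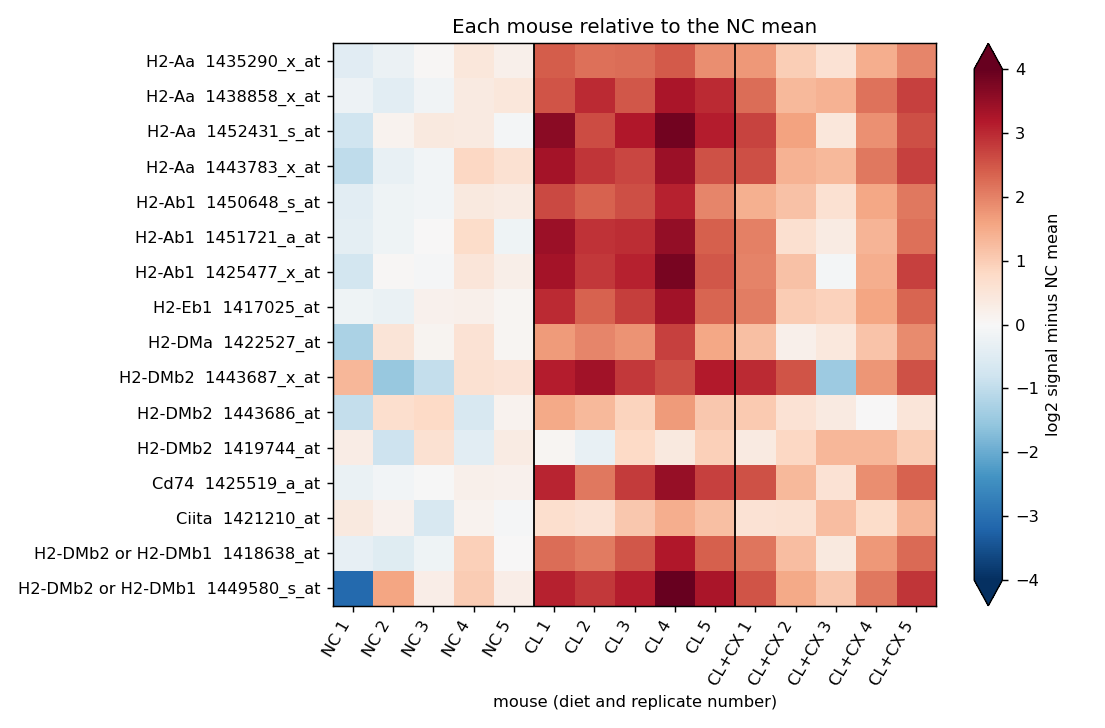
Log2 scaled signal of each tested class II probe set, and of the 2 shared by H2-DMb1 and H2-DMb2, minus its NC mean, by mouse; red is above and blue below the NC mean. The CL columns are red in most rows, and the CL+CX columns range from mouse 5, with the deepest red in most rows, to mouse 3, with the palest.

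Among all other genes tested, 10 had within-diet deviations most like those of the 4 genes, by Pearson r over the 15 mice. They were Wdfy4 (0.918), which is needed for cross-presentation in dendritic cells, Ubd (0.917), a ubiquitin-like modifier induced by interferon γ, Rgs2 (0.913), a regulator of G protein signalling, and Lsp1 (0.905), a leukocyte actin-binding protein. Tgif1 (0.892), Hk3 (0.891), AU020206 (0.868), Ralb (0.867), Lgals3bp (0.863) and Mndal (0.847) followed. With any 1 mouse left out, the r of Wdfy4 lay between 0.898 and 0.956 and that of Mndal between 0.801 and 0.917. Of the 10, 7 rose in CL against NC, led by Ubd at 3.55 (adjusted p = 0.000428), and Rgs2 alone fell in CL+CX against CL (-0.91, adjusted p = 0.0227). The list names likeness only.

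Few of the factors that assemble on the class II promoters passed the test. None of the 7 genes tested (Creb1 and the subunits of the RFX and NF-Y complexes) passed in CL against NC or in CL+CX against CL, and 1, Rfxap, fell in CL+CX against NC (-0.47, adjusted p = 0.0302). In CL against NC their differences ran from -0.32 (Rfx5, adjusted p = 0.158) to 0.43 (Nfya, adjusted p = 0.0784). For comparison, 7.2% of all 10521 tested genes were higher in CL and 6.78% lower, and 1.48% were higher and 1.79% lower in CL+CX against CL. In CL+CX against NC, 9.79% of all tested probe sets were called in either direction, and 4.81% were higher. On the interferon γ axis, 3 of 6 tested genes rose in CL and none fell: Irf8, a myeloid transcription factor, by 1.10 (adjusted p = 0.00887), Irf1, an early interferon target that acts on the Ciita gene, by 0.90 (adjusted p = 0.0459), and the receptor chain Ifngr1 by 0.64 (adjusted p = 0.00179). None of the 6 passed in CL+CX against CL. Ifng itself was below the array median on all 15 arrays.

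Several genes of antigen processing rose in CL, and some of them fell in CL+CX. Of 9 tested, 5 rose in CL against NC and none fell. Ctss, the cathepsin that trims the invariant chain in myeloid cells and B cells, rose by 2.28 (adjusted p = 6.26e-05). Lgmn, an asparaginyl endopeptidase, rose by 1.55 (adjusted p = 0.000259), Ifi30, a thiol reductase of the endosome, by 1.53 (adjusted p = 0.00113), Ctsd by 0.58 (adjusted p = 0.0207) and Ctsb by 0.37 (adjusted p = 0.0202). In CL+CX against CL, Lgmn fell by 1.25 (adjusted p = 0.00932) and Ctss by 1.04 (adjusted p = 0.0353), while Ifi30 differed by -0.82 (adjusted p = 0.0825). Ctsl, which takes the place of Ctss in thymic epithelium, was at -0.30 in CL against NC (adjusted p = 0.22).

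Turnover and costimulation were represented by few bright genes. Marchf1, the ligase that sends class II to degradation, rose in CL by 1.13 (adjusted p = 0.0237), and Marchf8 did not pass (0.14, adjusted p = 0.565). Of 7 costimulatory genes on the array 2 were tested, and both rose in CL: Cd86, a ligand of CD28, by 1.05 (adjusted p = 0.0468) and Cd274, a ligand of the inhibitory receptor PD-1, by at least 2.43-fold over the medians of the NC arrays (adjusted p = 0.032). Cd80 was below the median on all arrays. None of these 4 tested genes passed in CL+CX against CL. Neither Marchf1 nor Cd274 could pass the brightness filter through the NC mice, so their rise over NC is partly built into it.

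The class I pathway, which shows peptides of the cell's own cytosol, was read beside it. Of 13 tested genes 3 rose in CL, all of them subunits of the immunoproteasome: Psmb9 by 1.95 (adjusted p = 0.00155), Psmb8 by 1.57 (adjusted p = 0.00328) and Psmb10 by 1.05 (adjusted p = 0.0328). The heavy chains H2-K1 and H2-D1 and the light chain B2m differed by 0.02, 0.17 and -0.15, with adjusted p of 0.907, 0.356 and 0.529. None of the 13 passed in CL+CX against CL, where their differences ran from -0.37 to 0.32. In CL+CX against NC 4 of the 13 were higher, where 4.81% of all tested probe sets were higher.

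Markers of cells that carry class II were read on the same arrays. All 8 macrophage markers rose in CL against NC, among them Cd68 by 2.15 and Adgre1, a surface receptor of macrophages, by 1.11, and 6 of 8 fell in CL+CX against CL, with Cd68 at -1.42 (adjusted p = 0.0293). Their summed signal was 727 to 1667 in NC, 3838 to 4658 in CL and 1334 to 2729 in CL+CX, so that the CL mice stood clear of both other diets. Of 5 Kupffer cell markers 4 rose in CL (summed 462 to 1244 in NC, 1937 to 4276 in CL and 1087 to 2206 in CL+CX). None of the 5 passed in CL+CX against CL, but each had a lower mean in CL+CX, with a median difference of -0.83. Of 3 tested dendritic cell markers 1, Itgax, rose in CL (1.87, adjusted p = 0.0113). None of the 3 tested B cell markers passed in either comparison, their summed signal overlapped between the diets (61.8 to 108, 72.7 to 112 and 41.6 to 91.3 for NC, CL and CL+CX), and Cd79a, a defining marker, was below the median on all arrays. The single tested T cell marker, Cd3g, rose in CL (1.01, adjusted p = 0.0453), and Cd4 was below the median on all arrays. Neither Itgax nor Cd3g could pass the brightness filter through the NC mice, so their rise over NC is partly built into it. None of the 6 sinusoidal endothelial markers passed in CL (820 to 967 in NC, 813 to 1103 in CL, 458 to 939 in CL+CX), and Clec4g fell in CL+CX against CL (-0.83, adjusted p = 0.0349). All 6 had a lower mean in CL+CX than in CL, with a median difference of -0.69 where that of all tested genes was 0.02, and Lyve1 (-1.17, adjusted p = 0.05002) and Stab1 (-0.56, adjusted p = 0.0551) did not pass. Of the 4 tested hepatocyte markers, which include Alb and Ttr, Hnf4a fell in CL by 0.56 (adjusted p = 0.0224). Sox9, the 1 tested marker of bile duct cells, fell in CL+CX against CL (-1.13, adjusted p = 0.0141). Macrophage markers thus moved in the same directions as the class II chains in both comparisons, and sinusoidal endothelial markers were lower in CL+CX than in CL. The part of either in the class II differences was not tested.

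**Figure D4:**
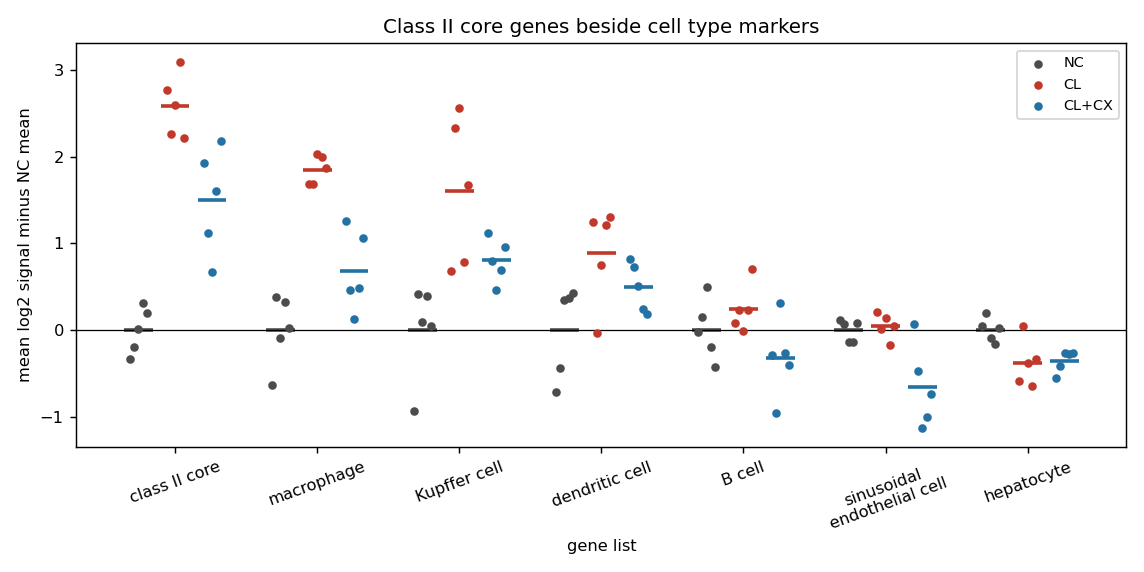
Mean log2 signal minus the NC mean of the class II core genes (H2-Aa, H2-Ab1, H2-Eb1 and Cd74) and of 6 cell type marker lists, by mouse and diet; points are mice and bars the means of 5. In the class II column the CL+CX mice lie between the NC and the CL mice, in the macrophage column CL+CX mouse 3 lies within the NC range (0.12) and the others between, and the B cell and hepatocyte columns stay within about 1 log2 unit of the NC mean.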

How the data were processed

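Total RNA of whole liver from 15 mice (5 NC, 5 CL, 5 CL+CX, 1 array each) had been hybridised to Affymetrix GeneChip mouse genome arrays. The deposited values are MAS5 signal intensities on a linear scale, which the authors computed with the scanner's software. Their 75th percentiles differed between arrays (41.5 to 79.0), so the scaling described in the study's methods is not in them. The genome build is not given in the sources used here, and probe sets were named from GEO's platform annotation (34958 with 1 symbol, 932 with several, 9211 with none). The β-cryptoxanthin dose differs between the sample titles (0.005%) and the treatment text (0.003%).

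The 64 control probe sets were left out, a step settled once the files had been seen. Signals of every array were multiplied so that its 75th percentile became 54.1, the geometric mean over arrays, values under 1 were set to 1 (11.3% of values), and log2 was taken. Probe sets at or above their array median in all 5 arrays of at least 1 diet were tested (20342; 17851 with 1 symbol, over 10521 genes, each gene by its brightest probe set). limma 3.58.1 in R 4.3.3 fitted the 3 diets together, with Benjamini-Hochberg adjustment over all tested probe sets. Where a group was below the array median on every array, a fold was given as a bound against those medians. On simulated data in CL against NC (20342 probe sets, 200 changed), 69.5% of 2-fold and 93.5% of 4-fold changes were recovered. No detection calls were used, and the number of arrays limits the precision.

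The members, the 6 companion gene lists, the 8 marker lists and the tests were chosen with earlier results of these data known. All members were named. Of each companion list, up to 4 genes past the test with the largest CL difference were named, and others with their values, with Ctsb and the marker genes picked after their values were seen. The genes nearest in pattern are the 10 with the highest r. Alternatives were no filter, a stricter filter, unscaled and quantile-normalized signals, an offset of 16, the methods' test (Welch's analysis of variance with pairwise comparison), a trend and robust prior, 2-group fits, a replicate block, a β-actin covariate, gene means, and leaving out each mouse. RefSeq promoters were searched with Python 3.11.15, and no sequence of Cd74 is shown.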

Additional observations from a re-analysis of the deposited data

Results flagged for a closer look

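Among 48 groups of 5 mice (16 probe sets, 3 diets), 3 had a lowest mouse far from the other 4 by Dixon's gap ratio, and chance flags about 1 in 20 groups. All gap ratios were taken on the log2 scale after the floor, while the readings below are scaled signals. H2-DMa (1422527_at) in NC mouse 1 read 12.9, against 32.6 in the next mouse of its diet (gap ratio 0.721). The probe set shared by H2-DMb1 and H2-DMb2 (1449580_s_at) read 0.971 in the same mouse, against 10.4 in the next (gap ratio 0.722). H2-DMb2 (1443687_x_at) in CL+CX mouse 3 read 1.46, against 13.5 in the next (gap ratio 0.723). The low values of 2 of the 3 are near the floor of 1, and CL+CX mouse 3 was the lowest of its diet in 9 of the 14 tested probe sets.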

How the results depend on the processing

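The rise of class II probe sets in CL against NC (13 of 14) stayed at 10 to 13 under every alternative, and at 13 whichever mouse was left out. It was 12 of 19 without a filter (2.5% of all tested probe sets called), 10 of 10 with the stricter filter (19.6%) and 11 of 14 with the β-actin covariate (5.6%). Both H2-DMb2 calls, 1443687_x_at and 1443686_at, were lost without a filter (limma adjusted p of 0.0504 and 0.0565) and with the covariate (0.0527 and 0.0751). The excess of CL+CX over NC (10 of 14) gave 7 to 12, and 7 to 11 with 1 mouse left out. It was 7 of 19 without a filter (1.34% of all) and 9 of 10 with the stricter filter (18.7%). The decrease in CL+CX against CL (5 of 14, limma) depended on the fit. It gave 0 without a filter (13 of 19 at an unadjusted p under 0.05), 8 of 10 with the stricter filter, 1 on signals as deposited and 9 with an offset of 16. It gave 0 when only CL and CL+CX were fitted (12 at an unadjusted p under 0.05) and 0 with the β-actin covariate (0 at an unadjusted p under 0.05). The share of all tested probe sets called in this comparison, 3.13% in the main fit, moved in the same directions. In the order of these settings it was 0.0844%, 7.26%, 0.398%, 4.89%, 0.698% and 0.00492%. The methods' test gave 6 (3.83% of all). With 1 mouse left out the decrease ran from 0 to 7 (0.512% to 4.72% of all). Without a filter 45037 probe sets were tested in place of 20342. The cause of the other shifts was not tested. The replicate block gave 13, 4 and 11 for the 3 comparisons, with H2-Aa 1452431_s_at (adjusted p = 0.0788) and H2-Ab1 1425477_x_at (0.0634) lost and H2-Aa 1438858_x_at (0.0493) gained. The deviations of mice with the same number correlated between -0.132 and 0.135 over the 15 pairs, and 1 pair, in CL against NC, was over a limit of 0.1. The labels do not say whether such mice share a cage or a batch, and these correlations cannot settle it. Under the methods' test, H2-DMb2 1443686_at (adjusted p = 0.0685) and Ciita 1421210_at (0.0585) no longer passed in CL against NC. Of single values with 1 mouse left out, 657 of 720 kept direction and side of the threshold, as did 428 of 486 under the other alternatives. In 2 cases the sign turned, both for differences that did not pass: H2-DMb2 1419744_at in CL+CX against CL was -0.17 with the covariate, and Ciita 1421210_at in the same comparison was 0.0075 without CL replicate 4, in a range of -0.22 to 0.0075 over the mice left out. H2-DMb2 passed in CL+CX against NC when its probe sets were averaged (1.04, adjusted p = 0.00984).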
